A study of Mus musculus with 12 samples.

Results

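The genes of branched-chain amino acid (BCAA) catabolism were followed in mouse hearts as a set of 31 named genes, running from the carrier that brings the amino acids into mitochondria to the enzymes that clear propionate, plus the regulator *Klf15*. They were chosen by name from the pathway, and all 31 were found among the 18604 genes of the deposited tables. All 31 also had enough reads for testing in every comparison. The samples were 12 heart libraries from male C57Bl/6J mice aged 12 weeks, 3 in each of 4 groups. The groups were a BCAA-free diet with transverse aortic constriction (TAC, a band that narrows the aorta and loads the left ventricle with pressure), a BCAA-free diet with sham surgery, a control diet with TAC, and a control diet with sham surgery. The control diet held every essential amino acid at the levels of chow, whereas leucine, isoleucine and valine were left out of the BCAA-free diet. Each diet began 4 days before surgery and was kept up until the heart was taken 1 week after surgery. The labels name the tissue only as heart, with no chamber, and do not state that replicates were separate mice, so the p-values below measure the spread between these libraries, which may be technical.

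Leucine, isoleucine and valine are broken down inside mitochondria. A transaminase first moves the amino group to 2-oxoglutarate, which leaves branched-chain keto acids. The branched-chain keto acid dehydrogenase (BCKDH) complex then removes carbon dioxide in a step that cannot be reversed. This complex is switched off when a kinase phosphorylates its E1α subunit and switched on again when a phosphatase removes the phosphate. Beyond this step each amino acid has its own branch: leucine ends as acetyl-CoA and ketone bodies, valine as propionyl-CoA, and isoleucine as both, and propionyl-CoA enters the citric acid cycle through a cobalamin-dependent mutase. In heart muscle the pathway is known for its low transcript levels in failing hearts and for the factor KLF15 as an activator.

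Values per library are normalized reads, that is, the reads recovered from the deposited values divided by a size factor set jointly over the 12 libraries. Changes are log2 differences ± SE from limma on log2(value + 1), fitted in each pair of groups alone (the main fits). A size given after rose, fell, higher or lower is such a log2 difference. A gene is said to have risen, fallen or changed where its adjusted p (Benjamini-Hochberg over all genes tested) was under 0.05. Libraries held 74206246 to 110452636 reads. In control-diet TAC hearts 17.9 to 19.9% of reads came from the mitochondrial genome, against 21.8 to 27.1% in the other groups. Control-diet TAC 3 stood apart from the other libraries of its group: it was the highest of the 3 for 24 of the 31 genes, and the median SD of the 31 genes (log2 scale) was 0.181 in that group, against 0.061 to 0.0887 in the others. All 10 ventricular cardiomyocyte markers were present, and their sum was 6902920 to 7196630 normalized reads in BCAA-free TAC hearts, 6470630 to 7063200 in BCAA-free sham hearts, 4507640 to 5173610 in control-diet TAC hearts and 5883460 to 6378070 in control-diet sham hearts. The 10 did not move together: with TAC on the control diet 8 had a log2 change below 0 and 2 above 0. Of these 2, *Mybpc3* had 368558, 388241 and 379733 normalized reads in control-diet TAC hearts and 312968, 352701 and 344646 in control-diet sham hearts. In whole tissue, fewer cardiomyocytes, less RNA per cardiomyocyte and changes of single marker genes cannot be told apart from these sums.

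The lowest levels of the pathway were in control-diet TAC hearts. With TAC on the control diet, 14 of the 31 genes fell (log2 change -0.86 to -0.44) and *Bcat1* rose, where 5.64% of all genes tested fell and 9.17% rose. Their median log2 change was -0.41, against -0.018 over all genes tested. Without control-diet TAC 3, 27 of the 31 were called, with 25.6% of all genes. The 15 calls came to 11 or 12 when any other library was left out, with 7.43 to 10.2% of all genes. With all 12 libraries in one fit 21 were called, with 24.9% of all genes. *Auh*, *Acad8*, *Pccb*, *Mmaa*, *Mmachc* and *Klf15* then joined the 15.

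With TAC on the BCAA-free diet, 6 genes fell, by a log2 change of -0.41 to -0.26, where 4.41% of all genes fell and 7.72% changed in either direction. They were *Bckdha*, *Dbt*, *Ppm1k*, *Acadsb*, *Aldh6a1* and *Klf15*. The median of the 31 was -0.10, against 0.006 over all genes. No gene of the set rose in limma, edgeR or DESeq2, where 3.31% of all genes rose in limma. At an unadjusted p under 0.05, 1 was higher (share of all genes not counted). The first 5 of these 6 had also fallen on the control diet, which makes them 83.3% of the genes that fell on the BCAA-free diet and 35.7% of those that fell on the control diet. These 2 comparisons share no library. With all 12 libraries in one fit *Bckdha* alone of the 6 was called, with 1.71% of all genes.

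The diet without BCAA went with higher levels in both surgeries. In sham hearts 7 genes rose (log2 change 0.24 to 0.64), where 1.27% of all genes rose and 3.54% changed in either direction. They were *Dbt*, *Ppm1k*, *Ivd*, *Acadsb*, *Aldh6a1*, *Abat* and *Mut*. No gene of the set fell in limma, edgeR or DESeq2, where 2.27% of all genes fell in limma. At an unadjusted p under 0.05, 1 was lower (share of all genes not counted). The groups did not overlap for 22 genes that were higher and 2 that were lower, against 13.2% and 12.9% of all genes. The count of 7 came to 1 without BCAA-free sham 1, 2 without BCAA-free sham 2 and 3 without BCAA-free sham 3, as the share of all genes called came to 0.28%, 1.26% and 0.762%. With all 12 libraries in one fit it was 2, *Ppm1k* and *Acadsb*, with 0.841% of all genes.

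In TAC hearts the BCAA-free diet went with a rise of 19 genes (log2 change 0.35 to 0.88) and a fall of *Bcat1*, where 6.23% of all genes rose and 10.5% fell. The median of the 31 was 0.52, against 0.022 over all genes. Scaling to the reads outside the mitochondrial genome shifted the median of all genes to -0.15. Under that scaling the 31 had a median of 0.35, and 14 rose and 1 fell, with 19.4% of all genes called. The count of 20 called genes became 30 without control-diet TAC 3, with 33.5% of all genes, and 12 without BCAA-free TAC 2, with 6.65%. With all 12 libraries in one fit it was 28, with 25.3% of all genes. Of the 7 genes that rose in sham hearts 6 also rose in TAC hearts, which is 85.7% of the 7 and 31.6% of the 19, and these comparisons share no library. The control-diet TAC libraries serve in both the comparison of surgeries on the control diet and the comparison of diets in TAC hearts, so a low level there moves both values.

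**Figure D1:**
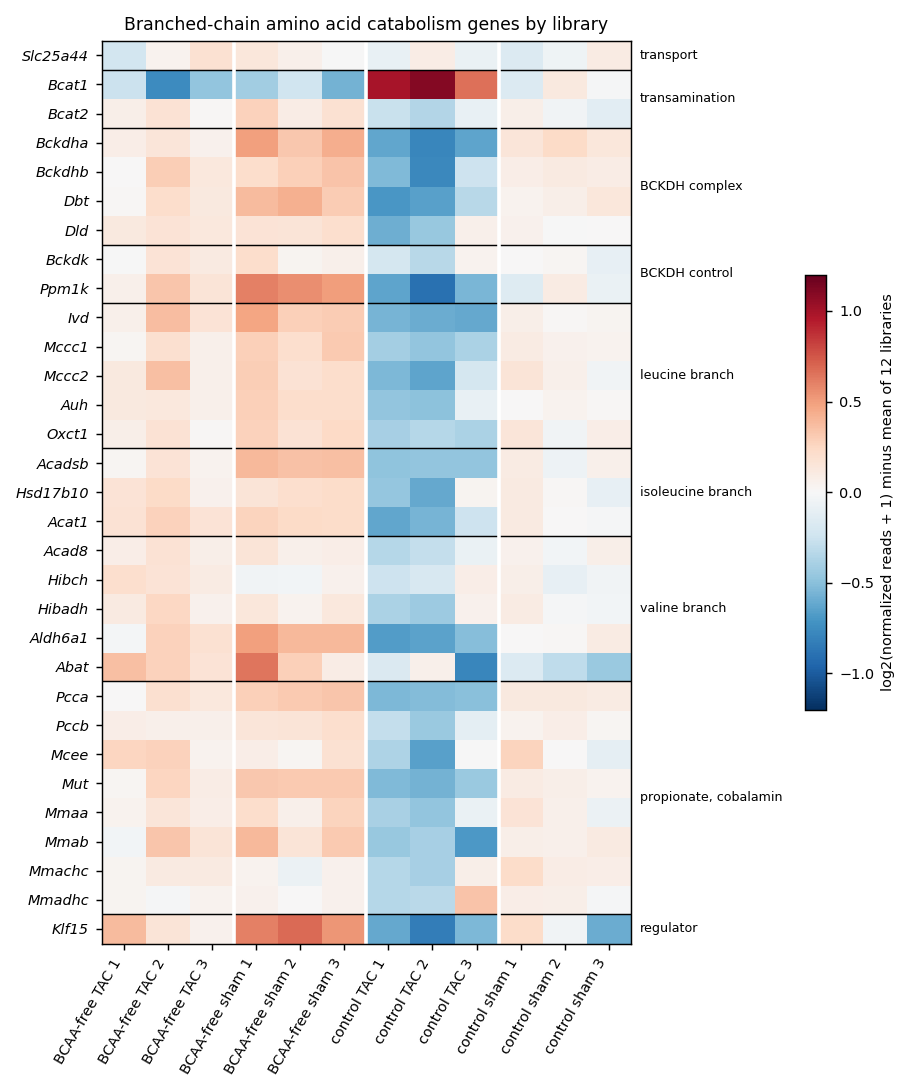
Deviation of each of the 31 genes from its own mean over the 12 libraries (log2 of normalized reads + 1, colour scale), with genes in rows by step and libraries in columns by group. The control-diet TAC columns are the lowest for most rows, with control-diet TAC 3 nearer to the other groups, while *Bcat1* shows the opposite pattern.

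The stretch upstream of the start site is shown for 4 genes because the data set them against each other: *Bckdha*, *Ppm1k* and *Aldh6a1* fell with TAC on both diets, whereas *Bcat1* rose with TAC on the control diet. Each line gives the 250 bases before the RefSeq start site, 5′ to 3′ on the strand of the gene, on GRCm38.p6. Capitals mark a match to a searched motif.
*Bckdha* (chr7:25658762-25659011, minus strand): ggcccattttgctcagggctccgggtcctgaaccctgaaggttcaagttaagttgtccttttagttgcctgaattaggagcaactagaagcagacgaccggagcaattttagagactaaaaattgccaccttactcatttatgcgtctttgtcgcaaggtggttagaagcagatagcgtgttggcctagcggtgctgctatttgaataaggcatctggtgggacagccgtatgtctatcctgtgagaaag
*Ppm1k* (chr6:57535488-57535737, minus strand): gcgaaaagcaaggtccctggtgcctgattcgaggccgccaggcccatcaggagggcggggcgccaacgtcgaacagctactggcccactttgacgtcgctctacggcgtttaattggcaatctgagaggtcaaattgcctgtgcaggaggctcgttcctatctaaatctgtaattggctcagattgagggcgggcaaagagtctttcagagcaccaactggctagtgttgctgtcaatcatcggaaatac
*Aldh6a1* (chr12:84451025-84451274, minus strand): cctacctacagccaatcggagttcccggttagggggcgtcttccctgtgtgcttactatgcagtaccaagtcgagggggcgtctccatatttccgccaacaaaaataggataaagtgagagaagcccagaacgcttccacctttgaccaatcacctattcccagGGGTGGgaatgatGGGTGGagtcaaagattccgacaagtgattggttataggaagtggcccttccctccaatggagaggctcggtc
*Bcat1* (chr6:145076158-145076407, minus strand): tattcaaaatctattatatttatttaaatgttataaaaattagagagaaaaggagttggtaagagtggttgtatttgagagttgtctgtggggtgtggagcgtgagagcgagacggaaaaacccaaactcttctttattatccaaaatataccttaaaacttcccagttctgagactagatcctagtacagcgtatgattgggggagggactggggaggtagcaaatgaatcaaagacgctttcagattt
The 2 capitalised stretches of *Aldh6a1* are the CACCC-box letters CCACCC read from the other strand, a short element that Krüppel-like factors bind. RefSeq windows of 300 bases (250 before and 50 after the start) were matched for 25 of the 31 genes. Only the first listed start of a gene was used, and *Bcat1*, *Bcat2*, *Bckdhb*, *Aldh6a1*, *Pcca* and *Mmaa* had 2 listed. The *Pcca* window (chromosome 14, 122484115 to 122484414) lies outside the gene position used here, which starts at 122534324. The printed *Bckdha* stretch begins at 25658762, whereas the gene position used here ends at 25658981, so most of that stretch lies inside the annotated gene. A smaller part of the *Bcat1* stretch, from 145076158, also lies inside its gene position, which ends at 145076184. No window was matched for *Slc25a44*, *Dbt*, *Acat1*, *Abat*, *Mut* and *Mmadhc*. With both strands searched, CCACCC was found in 9 of 25 windows (36.0%), against 30.9% of 27025 windows of all genes. The letters AAGGTCA, the half-site of oestrogen-related receptors, were in 0 of 25 windows and in 4.66% of all. Neither was TGATGNAA, the element of ATF4 with CEBP partners, in any of the 25, against 4.06% of all. The ETS letters CCGGAAG were in 1 window, that of *Auh* (4.0%, against 9.12% of all). A match describes the letters of the window and does not show that a factor binds.

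Transport and transamination did not follow the rest of the pathway as a block. *Slc25a44* (chromosome 3, 88410498 to 88425139 on GRCm38) codes for the mitochondrial BCAA carrier. *Slc25a44* had 1408, 1698 and 1864 normalized reads in BCAA-free TAC hearts and 1813, 1715 and 1638 in BCAA-free sham hearts. For *Slc25a44* the control-diet values were 1548, 1751 and 1554 in TAC hearts and 1463, 1587 and 1763 in sham hearts. The groups overlapped in all 4 comparisons, and the log2 change was 0.0048 ± 0.11 with TAC on the control diet and 0.032 ± 0.12 with the diet in TAC hearts.

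*Bcat2* (chromosome 7, 45570153 to 45589711), the mitochondrial transaminase that carries most of this step in muscle, was called in no comparison in the main fits. Normalized reads of *Bcat2* came to 8009, 8623 and 7746 in BCAA-free TAC hearts and 9270.5, 8117 and 8712 in BCAA-free sham hearts, against 6347, 6005 and 7208 in control-diet TAC hearts and 8038, 7430.2 and 6998 in control-diet sham hearts. The diet groups did not overlap in either surgery, with BCAA-free hearts higher, at 0.21 ± 0.069 in sham hearts (adjusted p = 0.114) and 0.33 ± 0.10 in TAC hearts (adjusted p = 0.0621). It passed in limma without control-diet TAC 3 for TAC on the control diet (-0.29, adjusted p = 0.0308) and for the diet in TAC hearts (0.41, adjusted p = 0.00169). The authors' deposited table also had it higher with the diet in TAC hearts (0.32, adjusted p = 0.039). With all 12 libraries in one fit *Bcat2* passed there too (0.32, adjusted p = 0.0154).

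*Bcat1* (chromosome 6, 144993835 to 145076184), the cytosolic transaminase, was the one member that went the other way. In BCAA-free hearts, *Bcat1* had 143, 101 and 123 normalized reads after TAC and 128, 145 and 115 after sham surgery. Control-diet *Bcat1* reads were 341, 367 and 271 after TAC and 152, 186 and 169 after sham surgery. All 3 control-diet TAC libraries lay above all other 9 libraries. *Bcat1* rose with TAC on the control diet by 0.93 ± 0.17 (adjusted p = 0.00827) and was lower in BCAA-free than in control-diet TAC hearts, with a log2 change of -1.40 ± 0.19 (adjusted p = 0.00176). On the BCAA-free diet its TAC and sham libraries overlapped, with a log2 change of -0.089 ± 0.18 (adjusted p = 0.828). In sham hearts BCAA-free libraries lay below control-diet libraries without overlap, but the change of -0.39 ± 0.16 did not pass (adjusted p = 0.208). The ratio of *Bcat2* to *Bcat1* reads per kilobase was 134, 204 and 150.5 in BCAA-free TAC hearts and 173, 134 and 181 in BCAA-free sham hearts. On the control diet the ratio was 44.5, 39.1 and 63.7 in TAC hearts and 126, 95.6 and 99.2 in sham hearts. The mitochondrial transaminase thus stayed far above the cytosolic one in every library, with the smallest margin in control-diet TAC hearts.

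Sums of the 8 fibroblast markers were also highest in control-diet TAC hearts, at 81795 to 105970 normalized reads in BCAA-free TAC hearts, 60888 to 67170 in BCAA-free sham hearts, 224454 to 376176 in control-diet TAC hearts, and 73698 to 95731 in control-diet sham hearts. The 6 macrophage markers summed to 12117 to 16526 in BCAA-free TAC hearts, 10704 to 12009 in BCAA-free sham hearts, 21383 to 24042 in control-diet TAC hearts, and 11199 to 15088 in control-diet sham hearts. The 8 fibroblast markers did not move alike. With TAC on the control diet 7 of the 8 rose, where 9.17% of all genes rose. Their log2 changes ran from 3.52 for *Postn* to 0.45 for *Tcf21* and 0.41 for *Dcn*, with *Pdgfra* at -0.014. On the BCAA-free diet *Pdgfra* fell with TAC (-0.22, limma adjusted p = 0.0322). All 8 fibroblast and all 6 macrophage markers were present, and their part in the change of *Bcat1* was not tested.

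Of the 4 subunit genes of the BCKDH complex, *Bckdha*, *Bckdhb* and *Dbt* fell with TAC on the control diet and rose with the diet in TAC hearts. *Bckdha* (chromosome 7, 25629946 to 25658981) codes for E1α, the subunit that the kinase phosphorylates. *Bckdha* had 8323, 8741 and 8162 normalized reads in BCAA-free TAC hearts and 11104, 9867 and 10719 in BCAA-free sham hearts. For *Bckdha* the control-diet values were 5129, 4603 and 5087 in TAC hearts and 8746, 9247 and 8691 in sham hearts. The control-diet TAC libraries were the 3 lowest of the 12, close together, and on each diet the TAC and sham libraries did not overlap. *Bckdha* fell with TAC, with a log2 change of -0.86 ± 0.094 on the control diet (adjusted p = 0.000886) and -0.33 ± 0.059 on the BCAA-free diet (adjusted p = 0.00591). With the diet it rose in TAC hearts, by 0.77 ± 0.094 (adjusted p = 0.000927). In sham hearts the diet groups did not overlap, but the difference of 0.24 ± 0.060 missed the threshold (adjusted p = 0.0541). Of its annotated exon length 61.7% is overlapped by *B3gnt8* on the opposite strand, and the strand setting of the counting is not given in the sources used here. *B3gnt8* averaged 762 normalized reads in BCAA-free TAC hearts, 837 in BCAA-free sham hearts, 787 in control-diet TAC hearts and 678 in control-diet sham hearts, which is 7.62 to 15.9% of the *Bckdha* level.

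*Bckdhb* (chromosome 9, 83925145 to 84124240) codes for E1β, the partner subunit of E1α. Normalized reads of *Bckdhb* came to 4541, 5559 and 4922 in BCAA-free TAC hearts and 5229.9, 5509 and 5740.2 in BCAA-free sham hearts, against 3119, 2638 and 3804 in control-diet TAC hearts and 4779, 4882 and 4810.0 in control-diet sham hearts. It fell (log2 change -0.62 ± 0.13) with TAC on the control diet, where the groups did not overlap, but had overlapping TAC and sham values on the BCAA-free diet (-0.14 ± 0.074). With the diet it rose by 0.67 ± 0.14 in TAC hearts. The fall on the control diet was lost without control-diet TAC 1 or control-diet sham 1, 2, 3 (adjusted p 0.0595 to 0.0625), and the rise in TAC hearts without BCAA-free TAC 2, 3 (adjusted p 0.0508 to 0.0718).

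*Dbt* (chromosome 3, 116513070 to 116549981) codes for E2, the core that carries the acyl group. In BCAA-free hearts, *Dbt* had 6305, 7208 and 6748 normalized reads after TAC and 8114, 8367 and 7689.7 after sham surgery. Control-diet *Dbt* reads were 3847, 3963 and 4943 after TAC and 6405, 6535 and 6830.1 after sham surgery. *Dbt* passed the test in all 4 pairs: TAC hearts were lower, with log2 changes of -0.65 ± 0.12 on the control diet and -0.26 ± 0.062 on the BCAA-free diet, and BCAA-free hearts were higher by 0.68 ± 0.12 after TAC and by 0.29 ± 0.056 after sham surgery. The smaller pair of these calls did not hold in several of the fits that left out 1 library. The fall on the BCAA-free diet was lost without BCAA-free TAC 1, 3 or BCAA-free sham 1, 2, 3 (adjusted p 0.0556 to 0.101), and the rise in sham hearts without BCAA-free sham 1, 2, 3 (adjusted p 0.0675 to 0.118).

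*Dld* codes for E3, which also serves the pyruvate and 2-oxoglutarate dehydrogenases, and was called in no comparison in the main fits. It had 35996, 39311 and 56409.6 normalized reads in control-diet TAC hearts, against 55821, 53874 and 54325 in control-diet sham hearts. The third of these TAC libraries lay above all of the control-diet sham libraries and the others lay far below. The log2 change was -0.35 ± 0.17 (adjusted p = 0.197). For the diet in TAC hearts *Dld* passed with all 12 libraries in one fit (0.46, adjusted p = 0.0152). DESeq2 also called it there (0.44, adjusted p = 0.0499). *Dld* passed without control-diet TAC 3 for TAC on the control diet (-0.55, adjusted p = 0.00142), for the diet in TAC hearts (0.67, adjusted p = 6.18e-05) and for the difference of the 2 TAC responses (0.50, adjusted p = 0.00332).

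Of the 2 genes that control the complex, the phosphatase passed in all 4 pairs of groups and the kinase in none with all libraries. *Ppm1k* (chromosome 6, 57506502 to 57535468) codes for PP2Cm, the phosphatase that activates BCKDH. *Ppm1k* had 7577, 9156 and 8081 normalized reads in BCAA-free TAC hearts and 11083, 10726 and 10267 in BCAA-free sham hearts. For *Ppm1k* the control-diet values were 4699, 3912 and 4970.1 in TAC hearts and 6528, 7769 and 6893 in sham hearts. The order of the groups was BCAA-free sham, BCAA-free TAC, control-diet sham and control-diet TAC from high to low, and only the middle pair overlapped. *Ppm1k* changed in all 4 pairs: TAC hearts were lower, with a log2 change of -0.65 ± 0.12 on the control diet (adjusted p = 0.00825) and -0.38 ± 0.070 on the BCAA-free diet (adjusted p = 0.00735). BCAA-free hearts were higher by 0.88 ± 0.12 after TAC (adjusted p = 0.00176) and by 0.60 ± 0.070 after sham surgery (adjusted p = 0.00391). All 4 calls held when any single library was left out, but the fall on the BCAA-free diet did not pass with all 12 libraries in one fit (adjusted p = 0.0868).

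*Bckdk* (chromosome 7, 127904082 to 127910221) codes for the kinase that inactivates BCKDH. Normalized reads of *Bckdk* came to 5952, 6711 and 6418 in BCAA-free TAC hearts and 6912, 6127 and 6219 in BCAA-free sham hearts, against 5160.2, 4739 and 6159 in control-diet TAC hearts and 5976, 6068 and 5573 in control-diet sham hearts. TAC and sham libraries overlapped on both diets, with log2 changes of -0.15 ± 0.12 on the control diet (adjusted p = 0.437) and -0.018 ± 0.065 on the BCAA-free diet (adjusted p = 0.911). The diet groups overlapped in TAC hearts and did not in sham hearts, where BCAA-free libraries were slightly higher (0.12 ± 0.063, adjusted p = 0.309). None of these passed with all libraries. *Bckdk* passed without control-diet TAC 3 for TAC on the control diet (-0.26, adjusted p = 0.0369) and for the diet in TAC hearts (0.37, adjusted p = 0.00369).

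The ratio of *Bckdk* to *Ppm1k* reads per kilobase was 1.28, 1.19 and 1.29 in BCAA-free TAC hearts and 1.02, 0.931 and 0.987 in BCAA-free sham hearts. On the control diet it was 1.79, 1.97 and 2.02 in TAC hearts and 1.49, 1.27 and 1.32 in sham hearts. Kinase reads per kilobase were thus highest relative to phosphatase reads in control-diet TAC hearts and about equal to them in BCAA-free sham hearts. On each diet every TAC library had a higher ratio than every sham library. These ratios describe transcripts and were not tested. Their absolute size depends on the exon lengths used, the union of all annotated exons of each gene.

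**Figure D2:**
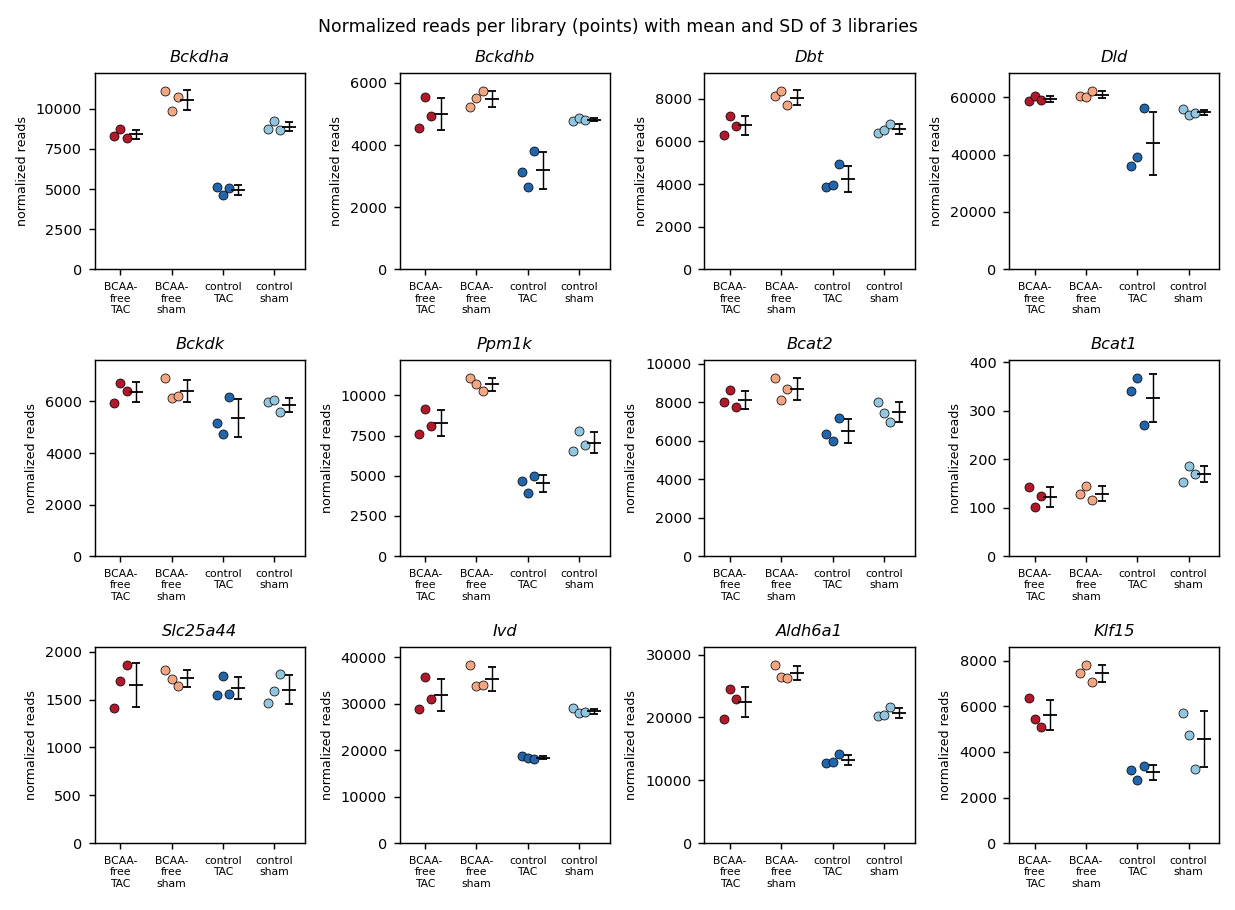
Normalized reads of 12 genes in each library (points), with the mean and SD of the 3 libraries of a group (bar), for BCAA-free TAC, BCAA-free sham, control-diet TAC and control-diet sham hearts; each panel has its own axis from 0. *Bckdha*, *Dbt*, *Ppm1k*, *Ivd* and *Aldh6a1* are lowest in control-diet TAC hearts, *Bcat1* is highest there, and *Bckdk* and *Slc25a44* overlap across most groups.

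The leucine branch held 5 genes, of which 4 fell with TAC on the control diet and 5 rose with the diet in TAC hearts. None of the 5 passed in the main fit, edgeR or DESeq2 with TAC on the BCAA-free diet. Their log2 changes there lay between -0.18 and -0.050, and 3 of the 5 were lower at an unadjusted p under 0.05 (share of all genes not counted). With scaling to reads outside the mitochondrial genome, *Mccc1* (-0.21, adjusted p = 0.0409) and *Auh* (-0.18, adjusted p = 0.0499) passed in limma. *Ivd* (chromosome 2, 118861954 to 118882909) codes for isovaleryl-CoA dehydrogenase, the first enzyme of the branch. In BCAA-free hearts, *Ivd* had 28825, 35718 and 31103 normalized reads after TAC and 38388, 33800.2 and 34077 after sham surgery. Control-diet *Ivd* reads were 18783, 18310.2 and 18092 after TAC and 29008, 27927 and 28241 after sham surgery. The control-diet TAC values were tight and far below the rest. *Ivd* fell (log2 change -0.63 ± 0.094) with TAC on the control diet (adjusted p = 0.00356) and rose with the diet by 0.79 ± 0.11 in TAC hearts (adjusted p = 0.00182) and by 0.31 ± 0.061 in sham hearts (adjusted p = 0.0254). The last of these was lost without BCAA-free sham 1, 2, 3 or control-diet sham 3 (adjusted p 0.0584 to 0.114).

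*Mccc1* (chromosome 3, 35959312 to 36000678) and *Mccc2* (chromosome 13, 99948530 to 100015639) code for the α and β subunits of methylcrotonyl-CoA carboxylase, a biotin enzyme. *Mccc1* had 11440.3, 12839 and 11705 normalized reads in BCAA-free TAC hearts and 13725, 12922 and 13915 in BCAA-free sham hearts. For *Mccc1* the control-diet values were 8461, 8075 and 8603 in TAC hearts and 11991, 11642 and 11525 in sham hearts. Normalized reads of *Mccc2* came to 5014, 5922 and 4826 in BCAA-free TAC hearts and 5669, 5203 and 5328 in BCAA-free sham hearts, against 3178, 2974 and 3983 in control-diet TAC hearts and 5121, 4803 and 4476 in control-diet sham hearts. Both fell with TAC on the control diet, with log2 changes of -0.49 ± 0.091 for *Mccc1* and -0.52 ± 0.13 for *Mccc2*. Both rose with the diet in TAC hearts, at 0.52 ± 0.10 for *Mccc1* and 0.65 ± 0.13 for *Mccc2*. The fall of *Mccc2* was lost without control-diet TAC 1, 2 or control-diet sham 1, 2, 3 (adjusted p 0.0611 to 0.101). Its rise was lost without BCAA-free TAC 2 (adjusted p 0.0637), and that of *Mccc1* without BCAA-free TAC 2 (adjusted p 0.0506).

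*Auh* (chromosome 13, 52835119 to 52929681) codes for methylglutaconyl-CoA hydratase. In BCAA-free hearts, *Auh* had 8073, 8129 and 7773 normalized reads after TAC and 9100.1, 8632 and 8652 after sham surgery. Control-diet *Auh* reads were 5377, 5294 and 7015 after TAC and 7485, 7699 and 7519 after sham surgery. It rose with the diet in TAC hearts (0.46 ± 0.12), a call lost without BCAA-free TAC 1, 2, 3 or control-diet TAC 1, 2 (adjusted p 0.094 to 0.133). Its TAC and sham libraries did not overlap on either diet, but the changes of -0.38 ± 0.12 on the control diet and -0.14 ± 0.052 on the BCAA-free diet did not pass. The first of these passed without control-diet TAC 3 (-0.52, adjusted p = 0.000972).

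*Oxct1* (chromosome 15, 4026383 to 4155344) codes for the CoA transferase by which heart uses ketone bodies, and had the highest level of the set per kilobase. *Oxct1* had 117889, 127168 and 113732 normalized reads in BCAA-free TAC hearts and 136421, 126584 and 132439 in BCAA-free sham hearts. For *Oxct1* the control-diet values were 85482, 88480.3 and 86488 in TAC hearts and 124833, 108992 and 118644 in sham hearts. It fell (log2 change -0.44 ± 0.11) with TAC on the control diet, which was lost without control-diet TAC 1, 2 or control-diet sham 1, 2, 3 (adjusted p 0.0586 to 0.121). It rose by 0.47 ± 0.11 with the diet in TAC hearts, which was lost without BCAA-free TAC 1, 2, 3 or control-diet TAC 1 (adjusted p 0.0653 to 0.125).

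In the isoleucine branch *Acadsb* and *Acat1* fell with TAC on the control diet and *Hsd17b10* did not pass in the main fits. *Acadsb* (chromosome 7, 131410601 to 131448944) codes for the short/branched-chain acyl-CoA dehydrogenase that opens the branch. Normalized reads of *Acadsb* came to 14308, 15763 and 14499 in BCAA-free TAC hearts and 18424, 17897 and 17999 in BCAA-free sham hearts, against 10042, 10086 and 10091 in control-diet TAC hearts and 15018, 13451 and 14651 in control-diet sham hearts. The groups were separate in all 4 pairs and all 4 changes passed: -0.52 ± 0.10 with TAC on the control diet, -0.29 ± 0.055 with TAC on the BCAA-free diet, 0.56 ± 0.093 with the diet in TAC hearts and 0.33 ± 0.057 with the diet in sham hearts. The last was lost without BCAA-free sham 1, 2, 3 (adjusted p 0.0568 to 0.0935).

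*Acat1* (chromosome 9, 53580522 to 53610382) codes for the mitochondrial thiolase that ends the branch and also acts on ketone bodies. In BCAA-free hearts, *Acat1* had 60840.3, 65269.5 and 60221 normalized reads after TAC and 64748, 63426 and 62869.5 after sham surgery. Control-diet *Acat1* reads were 35016, 36638 and 45407 after TAC and 58163, 54099 and 53389 after sham surgery. *Acat1* fell (log2 change -0.52 ± 0.13) with TAC on the control diet and rose by 0.68 ± 0.13 with the diet in TAC hearts, whereas TAC and sham values overlapped on the BCAA-free diet (-0.042 ± 0.054). Its fall was lost without control-diet TAC 1, 2 or control-diet sham 1, 2, 3 (adjusted p 0.0751 to 0.11). *Hsd17b10*, the X-linked dehydrogenase of the step between, had log2 changes of -0.36 ± 0.16 with TAC on the control diet and 0.50 ± 0.16 with the diet in TAC hearts (adjusted p = 0.0605). *Hsd17b10* passed for both without control-diet TAC 3 (-0.56, adjusted p = 0.0021 for TAC and 0.69, adjusted p = 6.39e-05 for the diet). For the diet it also passed with all 12 libraries in one fit (0.49, adjusted p = 0.0122) and in DESeq2 (0.47, adjusted p = 0.0355).

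In the valine branch, of 5 genes, *Aldh6a1* alone fell with TAC on either diet in the main fits. *Aldh6a1* (chromosome 12, 84430717 to 84451004) codes for methylmalonate semialdehyde dehydrogenase, the last enzyme before propionyl-CoA. *Aldh6a1* had 19833, 24512 and 22979 normalized reads in BCAA-free TAC hearts and 28397, 26425 and 26360.4 in BCAA-free sham hearts. For *Aldh6a1* the control-diet values were 12696, 12905 and 14160.0 in TAC hearts and 20226, 20419.9 and 21668 in sham hearts. Its groups did not overlap in any pair. *Aldh6a1* fell with TAC, with a log2 change of -0.66 ± 0.10 on the control diet (adjusted p = 0.00395) and -0.28 ± 0.075 on the BCAA-free diet (adjusted p = 0.0422). It rose with the diet by 0.76 ± 0.11 in TAC hearts and 0.38 ± 0.057 in sham hearts. The fall on the BCAA-free diet was lost without BCAA-free TAC 1, 3 or BCAA-free sham 1, 2, 3 (adjusted p 0.0877 to 0.139) and the rise in sham hearts without BCAA-free sham 1 (adjusted p 0.076). *Bbof1*, on the opposite strand, covers 18.6% of its exon length.

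*Acad8* (chromosome 9, 26974135 to 26999566) codes for isobutyryl-CoA dehydrogenase, which opens the branch. Normalized reads of *Acad8* came to 4358, 4633 and 4320.4 in BCAA-free TAC hearts and 4591, 4292 and 4353 in BCAA-free sham hearts, against 3241, 3385 and 3892 in control-diet TAC hearts and 4259.8, 4035 and 4333 in control-diet sham hearts. It rose with the diet in TAC hearts (0.35 ± 0.10), a call lost without BCAA-free TAC 1, 2, 3 or control-diet TAC 1, 2 (adjusted p 0.105 to 0.19). On the BCAA-free diet its TAC and sham values overlapped (0.0027 ± 0.056). Its difference with TAC on the control diet passed only without control-diet TAC 3 among the single libraries left out (-0.36, adjusted p = 0.00832). With all 12 libraries in one fit it also passed (-0.27, adjusted p = 0.0216).

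*Abat* (chromosome 16, 8513429 to 8621568), GABA transaminase, which also acts on the semialdehyde of the valine branch, was among the lowest of the set. In BCAA-free hearts, *Abat* had 1522, 1434 and 1331 normalized reads after TAC and 1848, 1452 and 1261 after sham surgery. Control-diet *Abat* reads were 1051, 1239 and 689 after TAC and 1061, 961 and 869 after sham surgery. *Abat* rose with the diet in sham hearts by 0.64 ± 0.14 (adjusted p = 0.0404), a call lost without BCAA-free sham 1, 2 or control-diet sham 1, 2, 3 (adjusted p 0.0592 to 0.132). In TAC hearts the diet groups did not overlap either, at 0.57 ± 0.19 (adjusted p = 0.0649). TAC and sham values overlapped on both diets, with -0.0025 ± 0.20 on the control diet and -0.078 ± 0.12 on the BCAA-free diet. The diet difference in TAC hearts passed without control-diet TAC 2 (0.75, adjusted p = 0.0232) or control-diet TAC 3 (0.33, adjusted p = 0.0246).

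*Hibch*, the hydrolase that frees hydroxyisobutyrate, and *Hibadh*, its dehydrogenase, were called in no comparison in the main fits. *Hibch* had a log2 change of -0.11 ± 0.12 with TAC on the control diet and of 0.15 ± 0.054 with TAC on the BCAA-free diet, where its TAC libraries all lay above its sham libraries. *Hibadh* overlapped in all 4 pairs, with log2 differences between -0.28 and 0.39. For the diet in TAC hearts both genes passed with all 12 libraries in one fit. *Hibch* stood at 0.27 (adjusted p = 0.0354) and *Hibadh* at 0.39 (adjusted p = 0.019). Without control-diet TAC 3 both passed for the diet in TAC hearts, *Hibch* at 0.38, adjusted p = 0.00182 and *Hibadh* at 0.55, adjusted p = 0.000312, and *Hibadh* also for TAC on the control diet (-0.44, adjusted p = 0.00422).

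The propionate and cobalamin steps held 8 genes. *Pcca*, *Mut* and *Mmab* fell with TAC on the control diet, and these 3 with *Mcee* and *Mmaa* rose with the diet in TAC hearts. *Pcca* (chromosome 14, 122534324 to 122891100) codes for the α subunit of propionyl-CoA carboxylase. *Pcca* had 7392, 8389 and 8030.4 normalized reads in BCAA-free TAC hearts and 8954, 9128 and 9253 in BCAA-free sham hearts. For *Pcca* the control-diet values were 5058, 5138 and 5199 in TAC hearts and 7968, 7965 and 7895 in sham hearts. TAC and sham libraries were separate on each diet. *Pcca* fell (log2 change -0.64 ± 0.086) with TAC on the control diet (adjusted p = 0.00234) and rose by 0.63 ± 0.092 with the diet in TAC hearts (adjusted p = 0.00216). With TAC on the BCAA-free diet the difference of -0.21 ± 0.059 missed the threshold (adjusted p = 0.0518). Without BCAA-free TAC 2 it passed (-0.25, adjusted p = 0.0338), as did *Mut* (-0.27, adjusted p = 0.0169) and, in the leucine branch, *Mccc1* (-0.23, adjusted p = 0.0411).

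*Mut* (chromosome 17, 40934685 to 40961988) codes for methylmalonyl-CoA mutase, which passes the carbon on to succinyl-CoA. Normalized reads of *Mut* came to 11341, 13381 and 11907 in BCAA-free TAC hearts and 13981, 13905 and 13867 in BCAA-free sham hearts, against 7726, 7537 and 8224 in control-diet TAC hearts and 11968, 11747 and 11519 in control-diet sham hearts. It fell (log2 change -0.59 ± 0.092) with TAC on the control diet and rose with the diet by 0.64 ± 0.10 in TAC hearts and 0.24 ± 0.049 in sham hearts. The rise in sham hearts was lost without BCAA-free sham 1, 2, 3 or control-diet sham 3 (adjusted p 0.0885 to 0.125).

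*Mmab* (chromosome 5, 114431034 to 114444060) codes for the enzyme that makes adenosylcobalamin, the cofactor of the mutase. In BCAA-free hearts, *Mmab* had 2762, 3559 and 3133 normalized reads after TAC and 3684, 3132 and 3514 after sham surgery. Control-diet *Mmab* reads were 2056, 2147 and 1744 after TAC and 2966, 2943 and 3035 after sham surgery. *Mmab* fell (log2 change -0.60 ± 0.10) with TAC on the control diet and rose by 0.67 ± 0.12 with the diet in TAC hearts. Both calls held without any single library, and TAC and sham values overlapped on the BCAA-free diet (-0.14 ± 0.093).

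*Mmaa* (chromosome 8, 79263598 to 79294937), a chaperone of the mutase, and *Mcee* (chromosome 7, 64392607 to 64412125), the epimerase before it, each passed in 1 pair. *Mmaa* had 3484, 3757 and 3581 normalized reads in BCAA-free TAC hearts and 3922, 3531 and 4076 in BCAA-free sham hearts. For *Mmaa* the control-diet values were 2583, 2447 and 3214 in TAC hearts and 3791, 3536 and 3234 in sham hearts. Normalized reads of *Mcee* came to 6176, 6284 and 5332 in BCAA-free TAC hearts and 5469, 5263 and 5878 in BCAA-free sham hearts, against 3999, 3304 and 5155 in control-diet TAC hearts and 6251, 5193 and 4789 in control-diet sham hearts. With the diet in TAC hearts *Mmaa* rose by 0.41 ± 0.12 and *Mcee* by 0.54 ± 0.16. These calls were lost for *Mmaa* without BCAA-free TAC 1, 2, 3 or control-diet TAC 1, 2 (adjusted p 0.0975 to 0.173) and for *Mcee* without BCAA-free TAC 1, 2, 3 or control-diet TAC 1, 2 (adjusted p 0.0798 to 0.167). Without control-diet TAC 3 both also passed for TAC on the control diet, *Mmaa* at -0.50, adjusted p = 0.00375 and *Mcee* at -0.58, adjusted p = 0.0122.

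*Pccb*, the β subunit of propionyl-CoA carboxylase, did not pass in the main fits, although its groups were separate in all 4 pairs. Its log2 differences were -0.34 ± 0.11 for TAC on the control diet and 0.36 ± 0.11 for the diet in TAC hearts. With all 12 libraries in one fit *Pccb* passed for both (-0.33, adjusted p = 0.00733 for TAC and 0.35, adjusted p = 0.00519 for the diet). The diet difference also passed in limma with TMM scaling, plain empirical Bayes or a mean of at least 50 (adjusted p 0.0454 to 0.0483). *Pccb* passed for both without control-diet TAC 3 (-0.43, adjusted p = 0.00421 for TAC and 0.44, adjusted p = 0.000876 for the diet). In the authors' deposited tables *Pccb* was lower with TAC on the control diet (-0.33, adjusted p = 0.0399) and higher with the diet in TAC hearts (0.35, adjusted p = 0.0246). The cobalamin handling genes *Mmachc* and *Mmadhc* were not called in the main fits either. Without control-diet TAC 3 both passed for TAC on the control diet, *Mmachc* at -0.51, adjusted p = 0.00225 and *Mmadhc* at -0.39, adjusted p = 0.00435, and for the diet in TAC hearts, *Mmachc* at 0.46, adjusted p = 0.000564 and *Mmadhc* at 0.36, adjusted p = 0.00197. *Mmachc* was one of 2 genes, with *Bcat1*, that lay lower without overlap in BCAA-free than in control-diet sham hearts (-0.12 ± 0.063). *Mmadhc* overlapped in all 4 pairs. With all 12 libraries in one fit *Mmachc* passed for TAC on the control diet (-0.35, adjusted p = 0.0257). In that fit *Mmachc* also passed for the diet in TAC hearts (0.31, adjusted p = 0.0462).

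*Klf15* (chromosome 6, 90462576 to 90475238) codes for the Krüppel-like factor that is known as an activator of BCAA catabolism genes in heart and muscle. In BCAA-free hearts, *Klf15* had 6359.9, 5468 and 5085 normalized reads after TAC and 7448, 7831 and 7077 after sham surgery. Control-diet *Klf15* reads were 3199.6, 2755 and 3383 after TAC and 5723, 4753 and 3253 after sham surgery. On the BCAA-free diet TAC libraries were separate from sham libraries and *Klf15* fell (log2 change -0.41 ± 0.076, adjusted p = 0.00788). On the control diet they overlapped, since control-diet sham 3 lay within the range of the TAC libraries, and the change of -0.53 ± 0.19 did not pass (adjusted p = 0.0944). BCAA-free TAC hearts had higher *Klf15* than control-diet TAC hearts, by 0.86 ± 0.12 (adjusted p = 0.00182). In sham hearts the groups were also separate, at 0.74 ± 0.21, without passing (adjusted p = 0.134). Without control-diet sham 3 both of the changes that missed passed, at -0.76, adjusted p = 0.0212 for TAC on the control diet and 0.51, adjusted p = 0.0328 for the diet in sham hearts. The authors' deposited tables also called both (-0.56, adjusted p = 0.0278 for TAC on the control diet and 0.70, adjusted p = 0.000175 for the diet in sham hearts). With all 12 libraries in one fit the change on the control diet passed (-0.52, adjusted p = 0.03). The fall on the BCAA-free diet did not pass in that fit (adjusted p = 0.249).

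**Figure D3:**
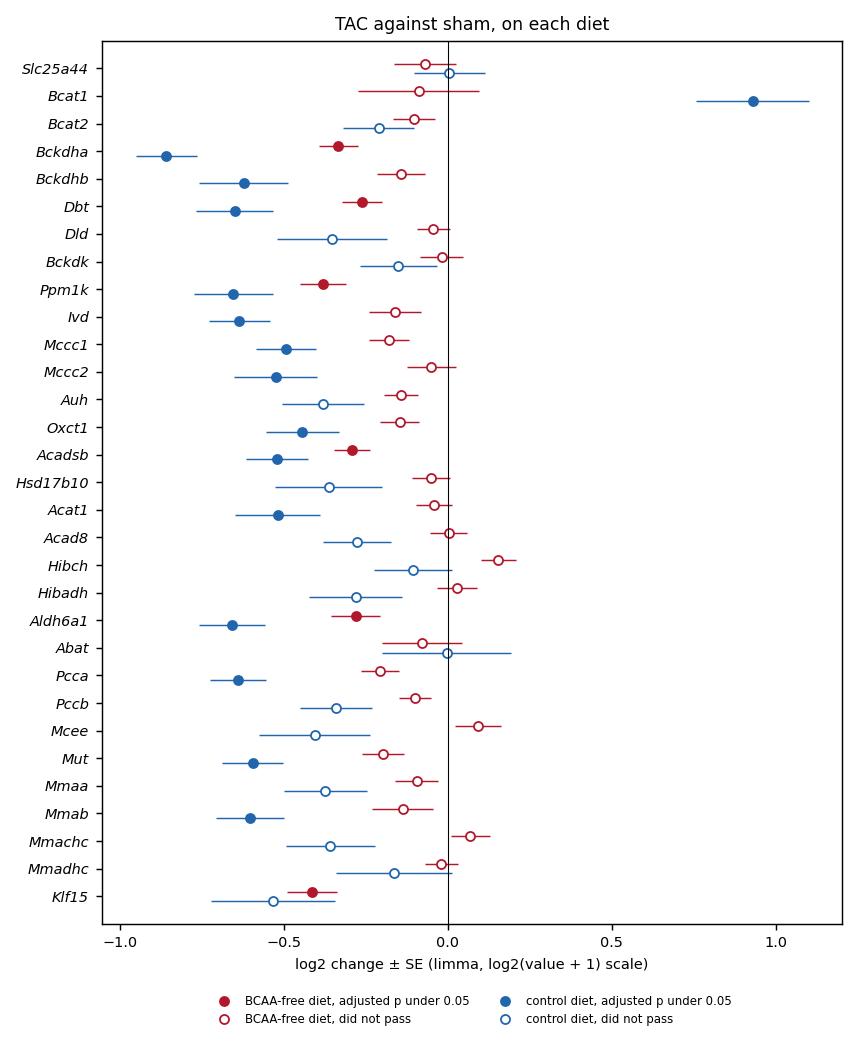
Log2 change ± SE (limma, log2(value + 1) scale) with TAC against sham for the 31 genes, on the BCAA-free and on the control diet; filled points had an adjusted p under 0.05. Filled control-diet points lie left of 0 except for *Bcat1*, and most BCAA-free points lie nearer to 0.

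**Figure D4:**
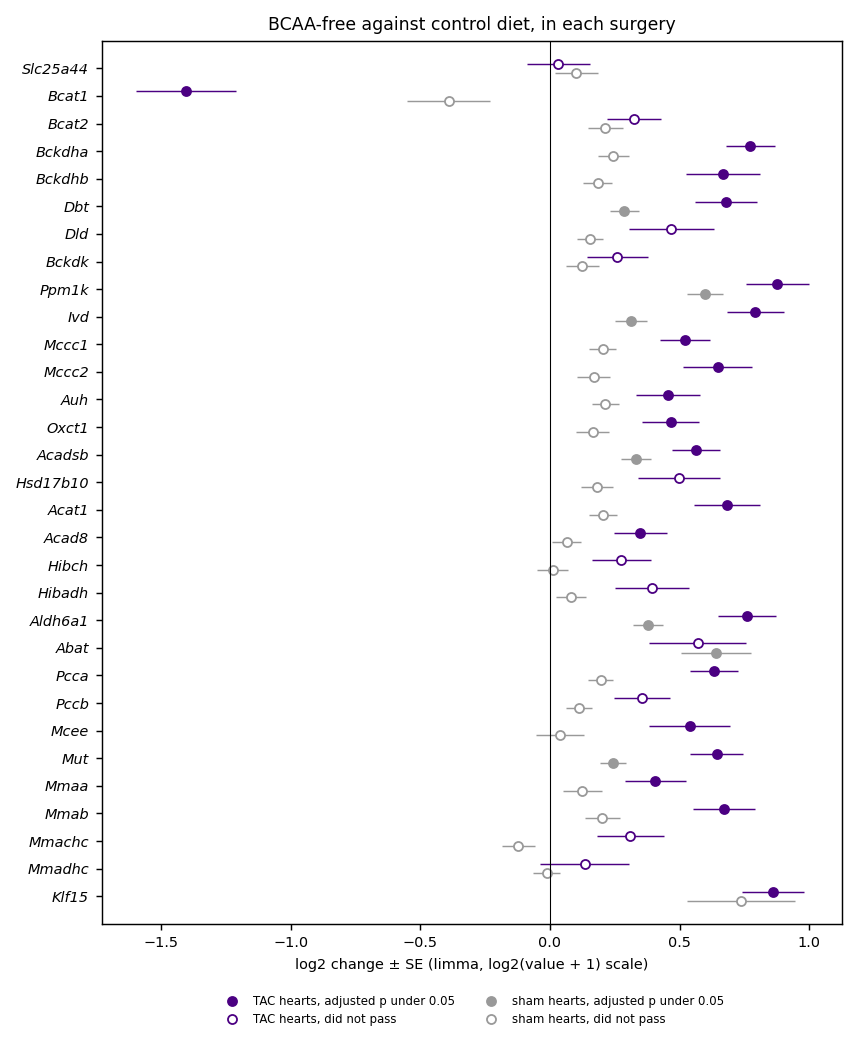
Log2 change ± SE (limma, log2(value + 1) scale) on the BCAA-free against the control diet for the 31 genes, in TAC and in sham hearts; filled points had an adjusted p under 0.05. Most points lie right of 0, *Ppm1k* and *Klf15* farthest right in TAC hearts, with *Bcat1* far to the left there.

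The responses to TAC on the 2 diets were tested against each other as the difference of their log2 changes, BCAA-free minus control. It was above 0 for 28 of the 31 genes, with a median of 0.30, against 0.012 over all genes. *Bckdha* alone passed, at 0.52 ± 0.10 (adjusted p = 0.04), where 0.164% of all genes passed with a higher and 0.486% with a lower response. At an unadjusted p under 0.05, 16 genes were above 0 and 1, *Bcat1*, below. The share of all genes at that unadjusted level was not counted, so these counts have no background here. *Bcat1* differed by -1.02 ± 0.25 (adjusted p = 0.0771). Next by adjusted p among genes above 0 were *Pcca* at 0.43 ± 0.092 (adjusted p = 0.0552) and *Ivd* at 0.47 ± 0.12 (adjusted p = 0.0845).

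The count of this test turned on control-diet TAC 3. Without it, 22 of the 31 genes passed, 21 above 0 and *Bcat1* below, where 9.74% of all genes passed. The largest of the 21 differences were 0.66 for *Mcee* and 0.61 for *Bckdhb*. With any other library left out, 0 genes of the set passed in limma, except for 1 without BCAA-free TAC 1. In these fits 0.0847 to 0.893% of all genes passed. The call of *Bckdha* was lost without BCAA-free TAC 1, 2, 3 or BCAA-free sham 1, 2, 3 or control-diet TAC 1, 2 or control-diet sham 1, 2, 3 (adjusted p 0.0517 to 0.139). Without control-diet TAC 3 its adjusted p was 0.00462. The difference for *Ppm1k* was 0.27 ± 0.14 (adjusted p = 0.413) and that for *Klf15* was 0.12 ± 0.23 (adjusted p = 0.876), so a response that differed between the diets is not shown for these genes.

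Cardiomyocyte markers moved with the pathway in part. With the diet in TAC hearts 6 of the 10 rose, among them *Pln*, *Myl2* and *Myh6*, with a median log2 change of 0.53 over the 10. Of all genes 6.23% rose there. With TAC on the control diet 1 of 10 fell (*Pln*), where 5.64% of all genes fell, and the median of the 10 was -0.33. With TAC on the BCAA-free diet 4 of the 10 rose and *Ryr2* fell, with a median of 0.087. Of all genes 3.31% rose and 4.41% fell there. In sham hearts the median of the 10 was 0.11 with the diet and none passed in limma. At an unadjusted p under 0.05, 3 were higher (share of all genes not counted).

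The mean log2 deviation of the 31 genes was set against that of the 10 markers in each library. This distance was -0.112 to -0.0628 in BCAA-free TAC hearts, against 0.0896 to 0.155 in BCAA-free sham hearts, and -0.117 to -0.0173 in control-diet TAC hearts, against -0.00509 to 0.10 in control-diet sham hearts. Relative to these markers the genes were thus lower after TAC on both diets without overlap. Between the diets the ranges overlapped in TAC hearts and in sham hearts. No test was made of these scores, and the part of cardiomyocyte RNA in the changes was not tested.

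Levels of different genes can be compared only per kilobase of exon. The length used was the union of all annotated exons of a gene, which may exceed the transcript present in heart. The order of genes is therefore approximate. In control-diet sham hearts *Oxct1* was highest, at 31745 ± 2157 normalized reads per kilobase (SD, n = 3), followed by *Dld* at 14845 ± 277 and *Acat1* at 14693 ± 685, a pair whose values overlapped. These 3 genes also serve other pathways. *Ivd* had 5158 ± 101, *Bckdha* 4684 ± 161, *Bckdhb* 2672 ± 29.1 and *Dbt* 1968 ± 65 normalized reads per kilobase. The kinase gene *Bckdk* stood at 1589 ± 71.3 and the phosphatase gene *Ppm1k* at 1173 ± 106. *Slc25a44* had 448 ± 42.2, and only *Abat* at 124 ± 12.4 and *Bcat1* at 18.1 ± 1.79 were lower.

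**Figure D5:**
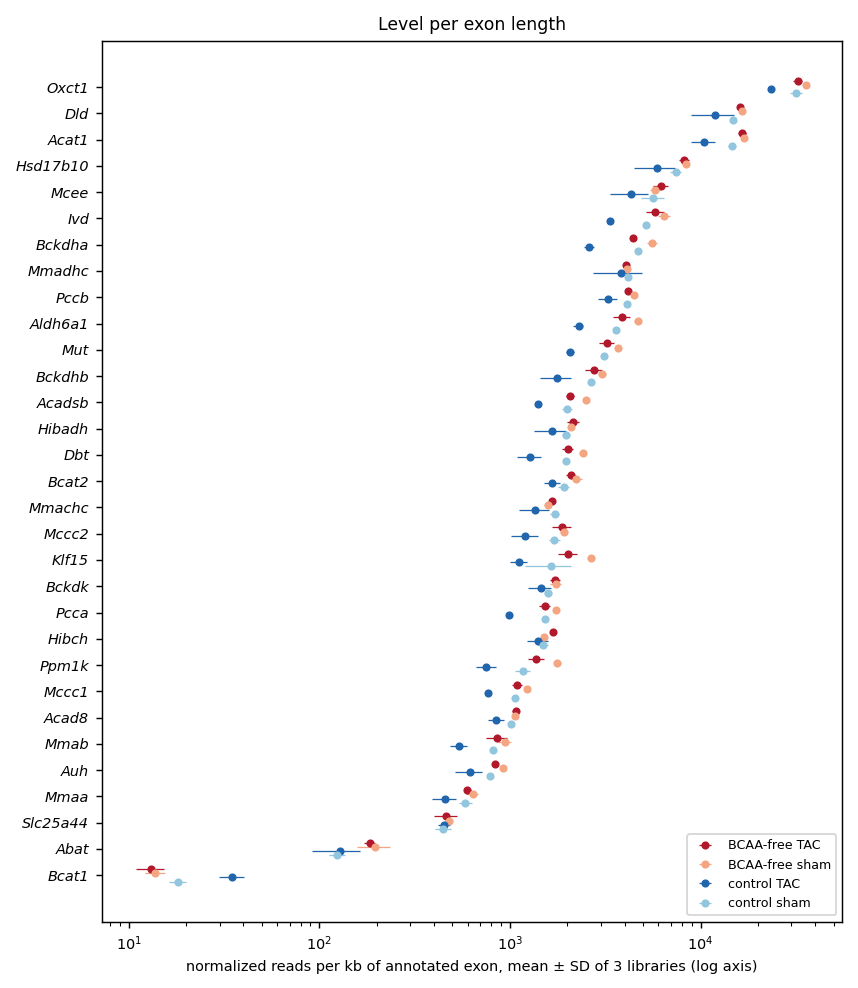
Mean level of the 31 genes in normalized reads per kilobase of exon (log axis) in each of the 4 groups, ordered by the level in control-diet sham hearts. *Oxct1*, *Dld* and *Acat1* lie at the top and *Abat* and *Bcat1* at the bottom in all groups.

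Other genes of the pathway, which include enzymes that these branches share with fatty acid oxidation, were taken from a list. Of the 25 tested, 5 fell with TAC on the control diet, where 5.64% of all genes fell. With TAC on the BCAA-free diet 3 fell, where 4.41% of all genes fell. With the diet 1 rose in sham hearts (*Aldh2*) and 8 in TAC hearts, where 1.27% and 6.23% of all genes rose. *Mtr*, the cobalamin-dependent methionine synthase, fell (log2 change -0.86 ± 0.12) with TAC on the control diet (adjusted p = 0.00305) and rose by 0.75 ± 0.14 with the diet in TAC hearts. *Hadha* and *Acaa2*, enzymes of fatty acid oxidation, fell with TAC on the control diet, with log2 changes of -0.63 ± 0.11 for *Hadha* and -0.63 ± 0.14 for *Acaa2*. *Aldh2*, *Mlycd* and *Lmbrd1* were the genes that fell with TAC on the BCAA-free diet.

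Also listed were 11 genes of the related pyruvate and 2-oxoglutarate dehydrogenases and their kinases and phosphatases. Of these, 3 fell with TAC on the control diet (5.64% of all genes fell) and 2 on the BCAA-free diet (4.41% of all genes). With the diet in TAC hearts 3 of the 11 rose (6.23% of all genes). *Pdp2*, a pyruvate dehydrogenase phosphatase, was among them each time, with log2 changes of -0.83 ± 0.17 for TAC on the control diet, -0.45 ± 0.11 for TAC on the BCAA-free diet and 0.76 ± 0.14 for the diet in TAC hearts. *Pdk2*, a pyruvate dehydrogenase kinase, fell (log2 change -0.55 ± 0.11) with TAC on the control diet and rose by 0.53 ± 0.11 with the diet in TAC hearts.

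Of 7 listed amino acid transport genes, *Slc7a8* rose by 0.67 ± 0.18 and *Slc3a2* by 0.40 ± 0.11 with TAC on the control diet. Of all genes 9.17% rose in that comparison. With the diet in TAC hearts *Slc7a5* and *Slc3a2* fell, with log2 changes of -0.78 ± 0.14 for *Slc7a5* and -0.35 ± 0.10 for *Slc3a2*. Of all genes 10.5% fell there. *Ppara*, a nuclear receptor of fatty acid oxidation, had 2328, 2939 and 2856 normalized reads in BCAA-free TAC hearts and 3615, 3039 and 3098 in BCAA-free sham hearts. Control-diet *Ppara* reads were 1653, 1825 and 929 in TAC hearts and 2608, 2913 and 2794 in sham hearts. It fell (log2 change -0.98 ± 0.22) with TAC on the control diet (adjusted p = 0.0173) and rose by 0.94 ± 0.22 with the diet in TAC hearts, and control-diet TAC 3 was its lowest library, unlike most of the 31 genes. Of the other 4 regulators tested, *Ppargc1a* rose with the diet in TAC hearts by 0.46 ± 0.13, and *Esrra*, *Nr3c1* and *Tead1* passed nowhere.

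In the authors' deposited tables, at an adjusted p under 0.05, 16 of the 31 genes were lower and 1 higher with TAC on the control diet, where 19.8% of all genes passed. The authors' deposited table for TAC on the BCAA-free diet had 7 lower, with 10.7% of all genes. For the diet, the authors' deposited tables had 13 higher in sham hearts, with 8.54% of all genes, and 24 higher with 1 lower in TAC hearts, with 20.9% of all genes.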

How the data were processed

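The 12 heart libraries were made from poly(A)-selected RNA extracted with Trizol, per the labels' protocols. Tools named in the submitters' processing notes are STAR 2.5.2b, Trimmomatic 0.36, DESeq2 and Subread 1.5.2, beside GRCm38 and mm10. Their roles, the annotation and the strand setting are not stated there, so overlapping genes may share reads. The authors deposited 4 tables, 1 per pair of groups, which hold, per the file headers, a signal per library (normalized read counts), log2 fold changes, and p-values. The deposited signal was read counts over a size factor per library. In all, 100% of values came out as whole reads (tolerance 0.0001 read), and 0 of 212169 reads compared between tables differed. No gene in a table had fewer than 61 reads summed over its 6 libraries. No column was left out for want of a label.

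The members and lists were chosen with earlier results of these data known. Groups and replicate numbers came from the labels. The design foresaw limma for normalized values: robust limma-trend on log2(value + 1), run in limma 3.58.1 under R 4.3.3. Genes averaging 10 or more were tested, each pair alone from its own table, with Benjamini-Hochberg adjustment over all of them. The difference of TAC responses used all 12 libraries with joint size factors. Fold changes on this scale understate those of low genes. Alternatives were edgeR 4.0.16 and DESeq2 1.42.0 on recovered reads, other pseudocounts (0.5 and 5), filters (none, and a mean of at least 50) and scalings (TMM, and reads outside the mitochondrial genome), plain empirical Bayes, all 12 libraries in one fit, a replicate block, and leaving out each library. The fits were tested on simulated data. By the rule for named genes, per-library values are given in full for 24 genes: those called in at least 1 comparison with a mean of at least 50, and *Bcat1*, *Bcat2*, *Bckdha*, *Bckdk*, *Ppm1k*, *Slc25a44* and *Klf15*. Values for genes of the other lists are given for the smallest p-values among those called. *Mmut*, listed among the other genes of the pathway, is another symbol of *Mut* and was not counted there. Positions and exon lengths (the union of all annotated exons of a gene) are those of GRCm38 (GENCODE, mouse).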

Additional observations from a re-analysis of the deposited data

Results flagged for a closer look

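*Bckdha* was singled out because its response to TAC differed between the diets in a test of the difference itself. The difference of log2 responses, BCAA-free minus control, was 0.52 ± 0.10 (SE, limma adjusted p = 0.04). All 3 TAC libraries lay below all 3 sham libraries on each diet. The adjusted p was 0.00462 without control-diet TAC 3 and 0.0517 to 0.139 without any other single library, 0.0401 to 0.0493 with TMM or non-mitochondrial scaling, and 0.0901 with a replicate block. *B3gnt8* overlaps most of its exon length on the opposite strand, and its part in the difference was not tested.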

How the results depend on the processing

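No result changed direction under any alternative where it was called. Percentages in brackets are the share of all genes called in the same fits. For TAC on the control diet, 15 genes were called (14.8%), and 21 with all 12 libraries in one fit (24.9%). When leaving out 1 library, 11 to 27 were called (7.43 to 25.6%), with 27 without control-diet TAC 3. For TAC on the BCAA-free diet, 6 were called (7.72%), and 10 after scaling to reads outside the mitochondrial genome (9.34%). With all 12 libraries in one fit 1 was called (1.71%), and 4 to 9 when leaving out 1 library (3.11 to 7.17%). For the diet in sham hearts, 7 were called (3.54%), and 13 with DESeq2 (8.57%). With all 12 libraries in one fit 2 were called (0.841%), and 1 to 7 when leaving out 1 library (0.28 to 6.03%). For the diet in TAC hearts, 20 were called (16.8%), and 28 with all 12 libraries in one fit (25.3%). When leaving out 1 library, 12 to 30 were called (6.65 to 33.5%). For the difference of TAC responses, 1 was called (0.649%), 2 at a mean of at least 50 (0.925%) and 2 with plain empirical Bayes (0.638%). With non-mitochondrial scaling 2 were called (1 higher and 1 lower, 1.61%), and 7 with DESeq2 (6 higher and 1 lower, 4.56%). When leaving out 1 library, 0 to 22 were called (0.0847 to 9.74%). The cause of these shifts was not tested. Apart from the replicate block, the other counts stayed within 1.5 times.

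Samples with the same replicate number did not deviate together (r -0.17 to 0.0417 over genes), so no pairing by number was seen over all genes. A pairing that touched few genes could not be seen this way. With a replicate block, 12 genes were called for TAC on the control diet (10.2% of all genes) and 4 on the BCAA-free diet (3.54%). For the diet, 4 were called in sham hearts (1.55%) and 16 in TAC hearts (11.3%). For the difference of TAC responses 0 were called (0.248%). *Bcat1*, at 101 to 367 normalized reads, rests on the fewest reads of the set.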
